A study of Mus musculus with 32 samples.

Results

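The 10 genes described here encode the sarcomeric myosin heavy chains, the motor proteins of the thick filaments of striated muscle. They were taken by symbol (Myh1, Myh2, Myh3, Myh4, Myh6, Myh7, Myh7b, Myh8, Myh13 and Myh15) and make up 10 of the 24421 genes in the deposited table of read counts. Albino mice (genotype B6(CG)Tyr(c-2J)/J), which the series title links to nystagmus, an involuntary eye movement, were compared with pigmented C57BL/6 mice. From each genotype come 4 libraries of extraocular muscle (EOM, which turns the eyeball), 4 of tibialis anterior (TA, a limb muscle), 4 of oculomotor neurons (CN3) and 4 of abducens motor neurons (CN6), 32 libraries in all. The labels give no treatment, age or sex, and do not state that replicates come from separate mice. A p-value here thus reflects the spread between these libraries, which may be technical.

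A sarcomeric heavy chain pairs with light chains and turns ATP into movement along actin, and the isoform a fibre makes sets how fast it shortens. Adult mouse limb muscle uses the fast isoforms IIB (Myh4), IIX (Myh1) and IIA (Myh2) and the slow isoform of Myh7, while the embryonic (Myh3) and perinatal (Myh8) chains are mostly replaced after birth. Extraocular muscle is known to keep developmental chains into adult life and to add Myh13, the extraocular isoform, and Myh15. Myh6 is the alpha chain of the heart, and Myh7b is an ancient slow type chain.

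The libraries do not all match their labels. In 8 albino libraries the markers of muscle and of nervous tissue, none of them a myosin, contradicted the label. Neural markers were found in replicates 1 and 2 of both albino muscle labels (EOM and TA), and muscle markers in replicates 3 and 4 of both albino neuron labels (CN3 and CN6). Of the latter, the libraries labelled albino CN3 3 and 4 carried the eye muscle markers and those labelled albino CN6 3 and 4 the Hox genes of the limb. The 5 eye muscle markers gave a sum of 317 to 343 CPM in the eye muscle and 7.92 to 13.4 CPM in the limb muscle of C57BL/6. The limb list of 10 genes did not separate the muscles by its sum, which was lower in TA (700 to 730) than in EOM (984 to 1072). Tbx15 (552 to 584 against 970 to 1060), Pitx1 and Tbx4 had lower CPM in TA, and Hoxd8 and Hoxd9 overlapped. Hoxa10, Hoxa11, Hoxc8, Hoxc9 and Hoxc10 were higher in TA, with Hoxc10 at 86.2 to 98.7 against at most 0.0918. Tests therefore used the 24 libraries whose markers match the label (4 C57BL/6 and 2 albino per tissue). Each was also run with the albino libraries grouped by markers (4 and 4), a set that includes the first. CN3 was not told apart from CN6 by these markers. In the grouping by markers, the neural libraries labelled albino EOM 1 and 2 were placed with CN3 and those labelled albino TA 1 and 2 with CN6. That placement was not checked by these markers. The 8 libraries are named here by their labels. Levels are given in CPM, the count scaled to the deposited library total, and totals ran from 18544334 to 44254021 reads.

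The positions follow GENCODE on GRCm38, the assembly also called mm10. Myh3, Myh2, Myh1, Myh4, Myh8 and Myh13 lie in that order on the plus strand of chromosome 11. The cluster runs from the start of Myh3 at 67078300 to the end of Myh13 at 67371586. Myh6 (54941921 to 54966927) and Myh7 (54970684 to 54994626) are neighbours on the minus strand of chromosome 14. Myh7b is on chromosome 2 (155611212 to 155634307) and Myh15 on chromosome 16 (49057486 to 49199104), both on the plus strand. Reads can be shared between close copies. Of the 100-base windows of its transcript, 11.4% in Myh6, 11.2% in Myh7, 9.73% in Myh1, 9.17% in Myh2, 6.61% in Myh8, 3.85% in Myh4, 3.45% in Myh13 and 1.15% in Myh3 also occur in another member, and 0 in Myh15 and Myh7b. How such reads were counted is not given in the sources used here.

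The promoters of the 4 neighbours in the middle of the cluster are shown because these genes, whose ratios of mean CPM in EOM to TA run from 0.318 (Myh4) to 3.54 (Myh2), share a piece of upstream sequence. Each line gives the 250 bases before the gene's start in RefSeq (GRCm38.p6, plus strand). Capitals mark TATAAA on the plus strand, a match to the MEF2 motif, and the 14-base run TTCTAATTATATCC.

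Myh2 (chr11:67170777-67171026): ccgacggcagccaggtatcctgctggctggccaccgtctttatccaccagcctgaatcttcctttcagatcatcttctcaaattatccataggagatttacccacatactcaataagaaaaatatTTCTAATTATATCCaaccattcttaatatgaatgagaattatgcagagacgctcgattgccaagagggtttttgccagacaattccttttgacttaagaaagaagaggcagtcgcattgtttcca
Myh1 (chr11:67199852-67200101): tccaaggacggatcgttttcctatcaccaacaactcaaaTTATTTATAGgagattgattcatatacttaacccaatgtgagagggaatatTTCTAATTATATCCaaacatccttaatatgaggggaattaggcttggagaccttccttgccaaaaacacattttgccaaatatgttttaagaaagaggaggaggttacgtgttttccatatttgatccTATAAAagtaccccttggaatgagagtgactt
Myh4 (chr11:67237562-67237811): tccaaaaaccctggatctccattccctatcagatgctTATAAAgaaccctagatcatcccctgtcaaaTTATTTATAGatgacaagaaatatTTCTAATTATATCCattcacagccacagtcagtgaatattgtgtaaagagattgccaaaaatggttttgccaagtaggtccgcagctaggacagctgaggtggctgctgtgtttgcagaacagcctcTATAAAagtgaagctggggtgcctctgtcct
Myh8 (chr11:67276874-67277123): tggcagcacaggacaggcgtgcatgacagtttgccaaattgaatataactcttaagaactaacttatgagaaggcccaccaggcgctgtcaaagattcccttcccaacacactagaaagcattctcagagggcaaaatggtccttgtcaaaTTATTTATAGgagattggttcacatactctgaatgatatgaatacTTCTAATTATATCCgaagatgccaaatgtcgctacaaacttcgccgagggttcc

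The 14-base run begins at −125 in Myh2, −160 in Myh1, −158 in Myh4 and −54 in Myh8, counted from the start. It was picked as the longest run the 4 share after they had been seen, and it occurs in 4 of 32851 promoters of this length. The MEF2 motif, named for a family of muscle transcription factors, matched in Myh1, Myh4 and Myh8 and in 1.69% of all promoters. TATAAA on either strand was found in 12.4% of all promoters, and its reverse copy in Myh1, Myh4 and Myh8 lies inside the MEF2 match. The E-box CANNTG, the site family of MyoD-like factors, had no match in these windows of Myh1 and Myh2, matched in those of Myh4, Myh13 and Myh15 among others, and was found in 66.2% of all promoters. Both strands were searched, and a match is a description of letters only.

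The muscles of C57BL/6 mice differed both in the make-up of the myosin pool and in single genes. In EOM the 10 genes together held 32595, 31818, 29956 and 30368 CPM in replicates 1 to 4, or 3.00 to 3.26% of all reads. In TA they held 39079, 41362, 45462 and 44289 CPM, or 3.91 to 4.55%. All 4 TA totals lay above all 4 EOM totals. In bulk tissue, fewer cells of a type and less RNA per cell cannot be told apart.

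**Figure D1:**
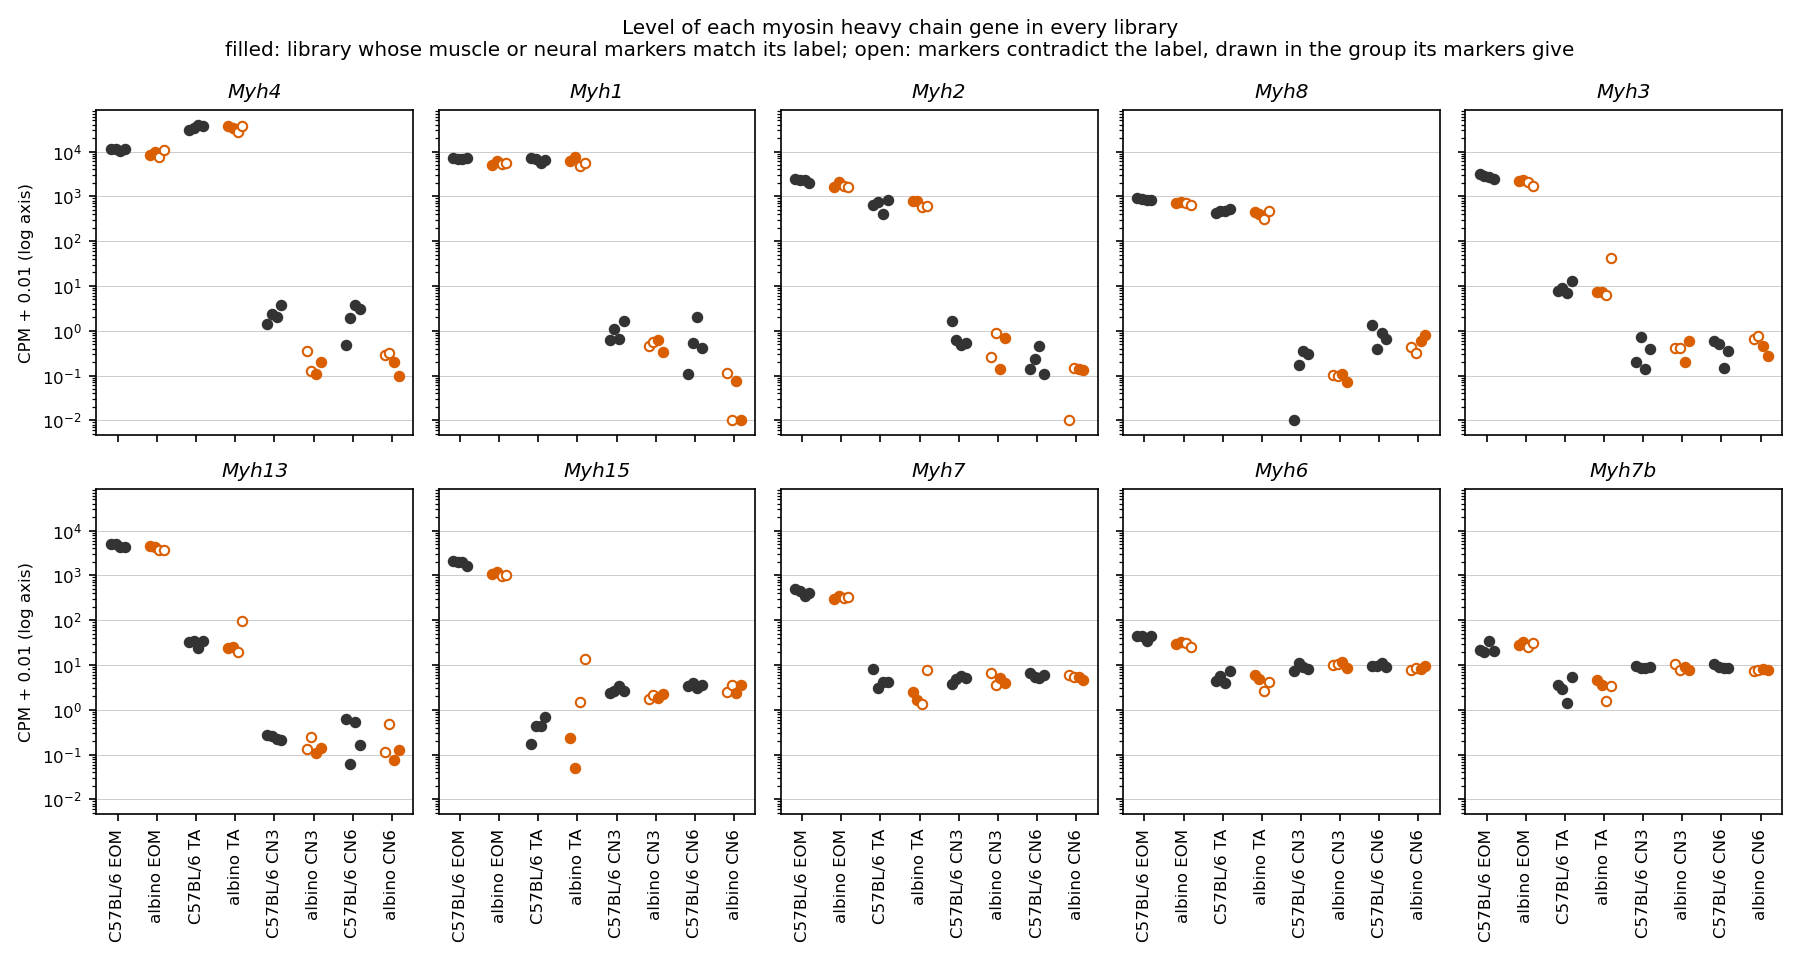
Level of each gene in the 32 libraries, as CPM plus 0.01 on a log axis, with C57BL/6 in grey and albino in orange and 1 point per library. Open points are libraries whose markers contradict the label, drawn as in the grouping by markers. Neural libraries labelled albino EOM are drawn with CN3 and those labelled albino TA with CN6, which the markers did not tell apart. Myh3, Myh13, Myh15 and Myh7 stand far higher in eye muscle than in limb muscle, and the summed level of the 16 neural libraries stays at 24.5 to 35.2 CPM.

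Corrected for transcript length, as CPM per kilobase of exon, the order of levels in C57BL/6 EOM was Myh4 (1843), Myh1 (1112), Myh13 (753), Myh3 (461), Myh2 (322), Myh15 (305), Myh8 (73.2), Myh7 (49.3), Myh6 (6.23) and Myh7b (3.57). Of these neighbours only Myh2 and Myh15 overlapped between libraries. In C57BL/6 TA the order was Myh4 (5803), Myh1 (1018), Myh2 (91.0), Myh8 (39.9), Myh13 (5.04), Myh3 (1.53), Myh6 (0.787), Myh7 (0.565), Myh7b (0.503) and Myh15 (0.0668). Here Myh6 overlapped Myh7 and Myh7 overlapped Myh7b. The exon length of Myh8, 11772 bases over all its models, is the longest of the 10 and lowers its value on this scale. Albino EOM had the same order as C57BL/6 EOM, with Myh6 and Myh7b overlapping, and albino TA differed only in that Myh7b (0.613) stood above Myh7 (0.241).

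The shares of each isoform in the 10-gene CPM sum are a description, with no test, since the shares of a library add up to 100%. In C57BL/6 TA, Myh4 alone took 79.3, 80.3, 85.7 and 82.4% of the sum, and Myh1 took 17.9, 16.7, 12.3 and 14.4%. Limb muscle was thus almost wholly adult fast: Myh4, Myh1 and Myh2 together came to 98.7 to 98.9%. In C57BL/6 EOM the same 3 genes made 64.3 to 68.2%. There Myh4 took 34.7, 35.1, 35.0 and 37.4% and Myh1 22.0, 21.9, 22.7 and 24.0%. The remainder of the eye muscle pool was spread over isoforms that were rare in TA. Myh13 and Myh15 together made 19.8 to 22.0% in EOM and 0.0533 to 0.0852% in TA. The developmental pair Myh3 and Myh8 made 10.5 to 12.4% in EOM and 1.06 to 1.19% in TA. The slow and cardiac chains (Myh7, Myh6 and Myh7b) made 1.39 to 1.75% in EOM and 0.0210 to 0.0415% in TA.

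**Figure D2:**
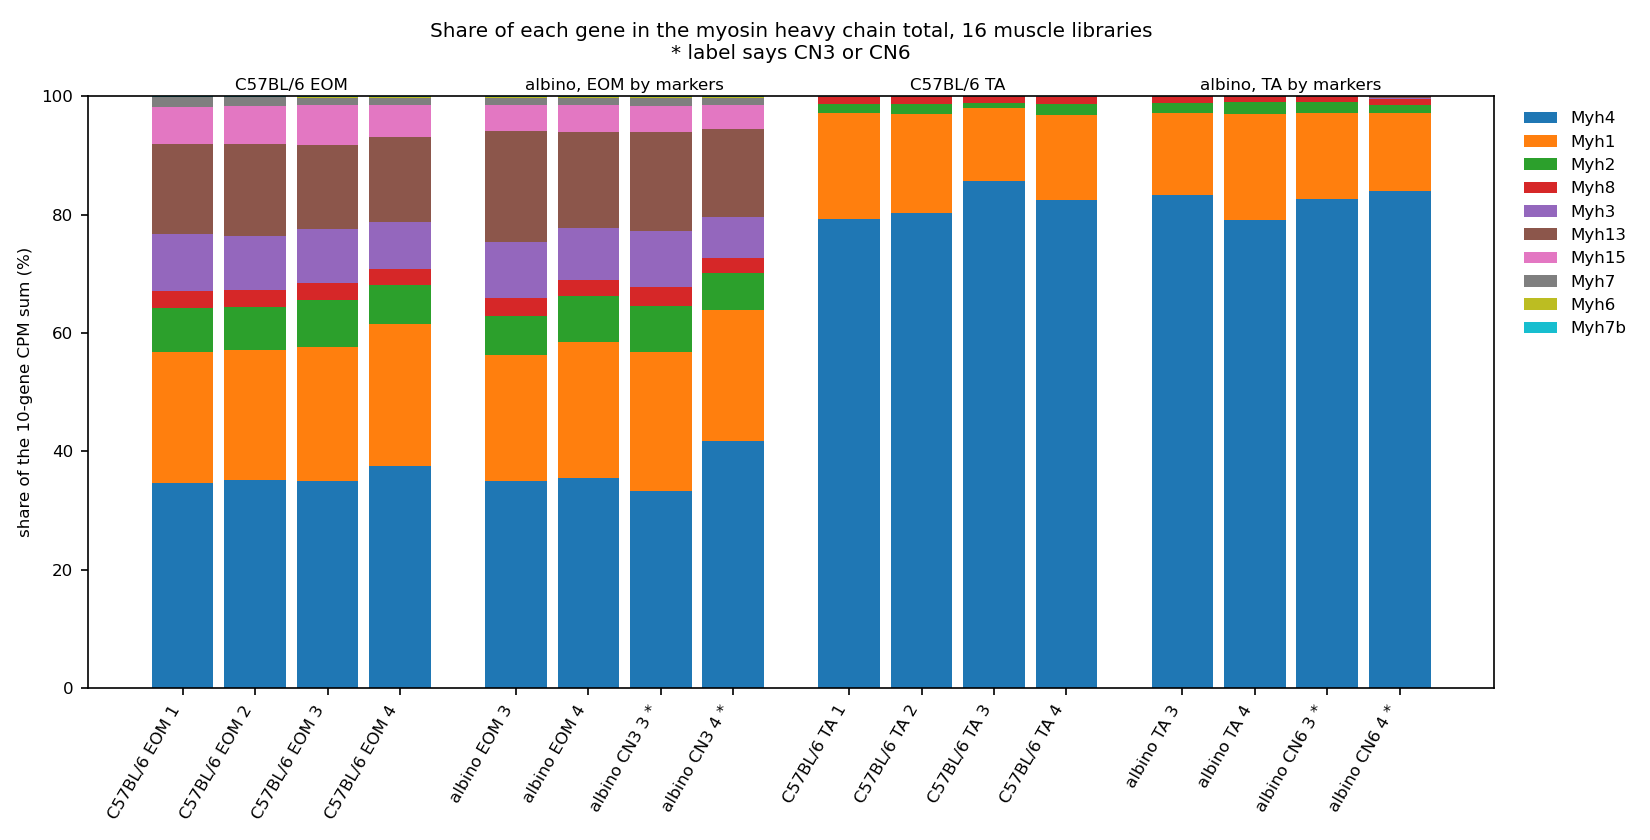
Share of each gene in the CPM sum of the 10 genes, in percent, for the 16 muscle libraries, with 1 stacked bar per library. An asterisk marks a library whose label says CN3 or CN6. Myh4 fills 79.3 to 85.7% of the C57BL/6 TA bars and 34.7 to 37.4% of the C57BL/6 EOM bars.

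Eye muscle was set against limb muscle in 1 fit of the 12 matching muscle libraries. In C57BL/6, 9 of 10 members were called at an adjusted p under 0.05 by edgeR's quasi-likelihood test, 7 higher in EOM and 2 lower, where 75.9% of all genes tested were called (41.4% higher, 34.6% lower). The median log2 fold change was 2.16 over the members and 0.13 over all genes. These estimates use TMM scaling. Scaled to library totals instead, the median of all genes moved up by 0.74 and the share of calls that were higher in EOM went from 54.5% to 87.5%, so differences under about that size depend on the scaling. Markers of several cell types moved with the contrast. All 10 muscle markers were lower in EOM (sum 61372 to 65558 against 128517 to 132571 CPM, median −1.87), and 9 of the 10 with library totals. All 10 neural markers (285 to 385 against 25.2 to 35.2 CPM), all 7 gland and epithelium markers (99.0 to 436 against 0.215 to 0.460 CPM) and all 5 cell division markers (a median of 4.20, with 0.0800 to 0.537 CPM in TA) were higher. In TA 4 of the neural, 5 of the gland and 1 of the cell division markers were at 0. Their part in the myosin differences was not tested.

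Among the adult fast chains, Myh4, the IIB isoform, read 11320, 11184, 10483 and 11372 CPM in C57BL/6 EOM and 30971, 33195, 38969 and 36499 CPM in C57BL/6 TA. Every TA library stood above every EOM library, by 3.15-fold between the means. With TMM scaling the difference was −2.39 ± 0.10 on the log2 scale (SE, adjusted p = 2.05e-11). Myh1, the IIX isoform, read 7187, 6972, 6795 and 7303 CPM in EOM and 7002, 6906, 5583 and 6375 CPM in TA. Its ranges overlapped, with a ratio of the means of 1.09. Relative to all genes Myh1 was lower in EOM with TMM scaling (−0.61 ± 0.09, adjusted p = 3.47e-05), but with library totals its estimate turned to 0.13 (adjusted p = 0.176). Myh2, the IIA isoform, read 2441, 2347, 2373 and 2022 CPM in EOM and 625, 738, 395 and 839 CPM in TA. It was higher in EOM in all 4 libraries, by 3.54-fold between the means, and rose by 1.08 ± 0.17 with TMM scaling (adjusted p = 3.35e-05).

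Of the developmental chains, embryonic Myh3 showed the wider gap. It read 3143, 2908, 2736 and 2390 CPM in C57BL/6 EOM and 7.72, 9.05, 7.06 and 13.1 CPM in TA. The groups were far apart, at 302-fold between the means and 7.49 ± 0.18 on the log2 scale (adjusted p = 1.4e-13). Perinatal Myh8 read 914, 886, 839 and 808 CPM in EOM and 424, 468, 474 and 512 CPM in TA. The CPM ranges did not overlap, yet the direction of Myh8 depended on the scaling. Its estimate was 0.14 ± 0.07 with TMM (adjusted p = 0.103), 0.88 with library totals (adjusted p = 2.15e-08) and −0.46 with offsets for GC content and exon length (adjusted p = 6.04e-05). Markers of growing or regenerating fibres moved with Myh3. The summed CPM of the 8 of 10 listed genes found in the table was 2803 to 3139 in EOM and 113 to 133 in TA, 7 of the 8 were called higher and 1 lower, and none was at 0 throughout. Actc1, the cardiac actin that fetal fibres also make, accounted for 2526 to 2831 of it in EOM. Myog, a factor of muscle differentiation, read 19.0 to 21.2 against 1.46 to 3.46 CPM, and Chrng, the fetal acetylcholine receptor subunit, 1.44 to 2.37 against at most 0.0800 CPM. Their part in the Myh3 difference was not tested.

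The isoforms tied to eye muscle, Myh13 and Myh15, were likewise far higher there. Myh13 read 4975, 4980, 4272 and 4395 CPM in C57BL/6 EOM and 32.3, 34.8, 23.8 and 33.6 CPM in TA. The levels lay 149-fold apart, or 6.49 ± 0.12 on the log2 scale (adjusted p = 2.58e-14). Myh15 read 2045, 2030, 2041 and 1618 CPM in EOM. In TA it came to 0.160, 0.422, 0.433 and 0.679 CPM, from 4, 11, 10 and 19 reads. It thus dropped to a trace in limb muscle, and the ratio of the means was 4565 and the estimate 11.38 ± 0.20 (adjusted p = 1.08e-14). The means in TA were 31.1 ± 4.99 CPM for Myh13 and 0.424 ± 0.212 CPM for Myh15 (SD, n = 4). Of the 100-base windows of Myh13, 3.45% also occur in another member. The part of shared reads in its low TA level was not tested.

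The slow and cardiac chains were minor in both muscles and higher in EOM. Myh7, the slow chain of limb fibres, read 505, 449, 348 and 396 CPM in EOM and 8.28, 2.99, 4.11 and 4.08 CPM in TA. TA library 1 was above the other 3, and the groups lay 87.2-fold apart (5.72 ± 0.25, adjusted p = 4.23e-11). Myh6, the cardiac alpha chain, read 44.1, 43.6, 34.5 and 45.4 CPM in EOM and 4.36, 5.56, 4.03 and 7.22 CPM in TA. The ratio of the means was 7.92 (2.24 ± 0.17, adjusted p = 1.56e-08), without overlap. Myh7b read 21.1, 19.5, 33.5 and 20.6 CPM in EOM and 3.60, 2.95, 1.39 and 5.40 CPM in TA. EOM library 3 was the highest and the ranges did not meet, with 7.10-fold between the means (2.07 ± 0.27, adjusted p = 7.53e-06). Heart muscle markers were checked beside Myh6. The 9 listed genes summed to 31.4 to 45.6 CPM in C57BL/6 EOM, 4 were tested and all 4 were higher than in TA, and 3 of the 9 were at 0 in all 4 libraries. Most of the sum was Tnnt2 (25.8 to 36.6 CPM), a troponin that young skeletal fibres make too. Ryr2 (2.57 to 5.83 CPM, at most 0.358 in TA), Tnni3 (0.863 to 2.74, at most 0.160) and Tbx20 (1.06 to 1.83, at most 0.260) were also higher in EOM. Nppb was at 0 and Myl7, the atrial light chain, at no more than 2 reads. The part of these genes in the Myh6 difference was not tested.

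The same contrast in albino mice rests on 2 libraries per muscle. In albino EOM 3 and 4, Myh4 read 8299 and 9514 CPM, Myh13 4459 and 4378 CPM, Myh3 2232 and 2338 CPM, and Myh15 1049 and 1182 CPM. In albino TA 3 and 4, Myh4 read 36985 and 33737 CPM, Myh13 23.8 and 24.9 CPM, Myh3 7.45 and 7.36 CPM, and Myh15 0.227 and 0.0404 CPM, the last from 6 reads and 1 read. The muscles were ordered as in C57BL/6 for each of these genes. By edgeR's quasi-likelihood test 8 of 10 members were called (6 higher in EOM, 2 lower), with 58.4% of all genes called (70.4% with the grouping by markers, where 9 of 10 members were). The estimates were 12.26 for Myh15, 7.57 for Myh3, 6.81 for Myh13, 6.57 for Myh7, 2.17 for Myh7b, 1.76 for Myh6 and −2.68 for Myh4. Myh2, at 0.51 (adjusted p = 0.0732), was called with 4 and 4 libraries (0.62, adjusted p = 0.00338). Myh1 was −0.99 with TMM scaling and stayed negative with library totals (−0.30), and Myh8 was 0.09, called higher with library totals (0.78) and lower with GC and length offsets (−0.27).

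**Figure D3:**
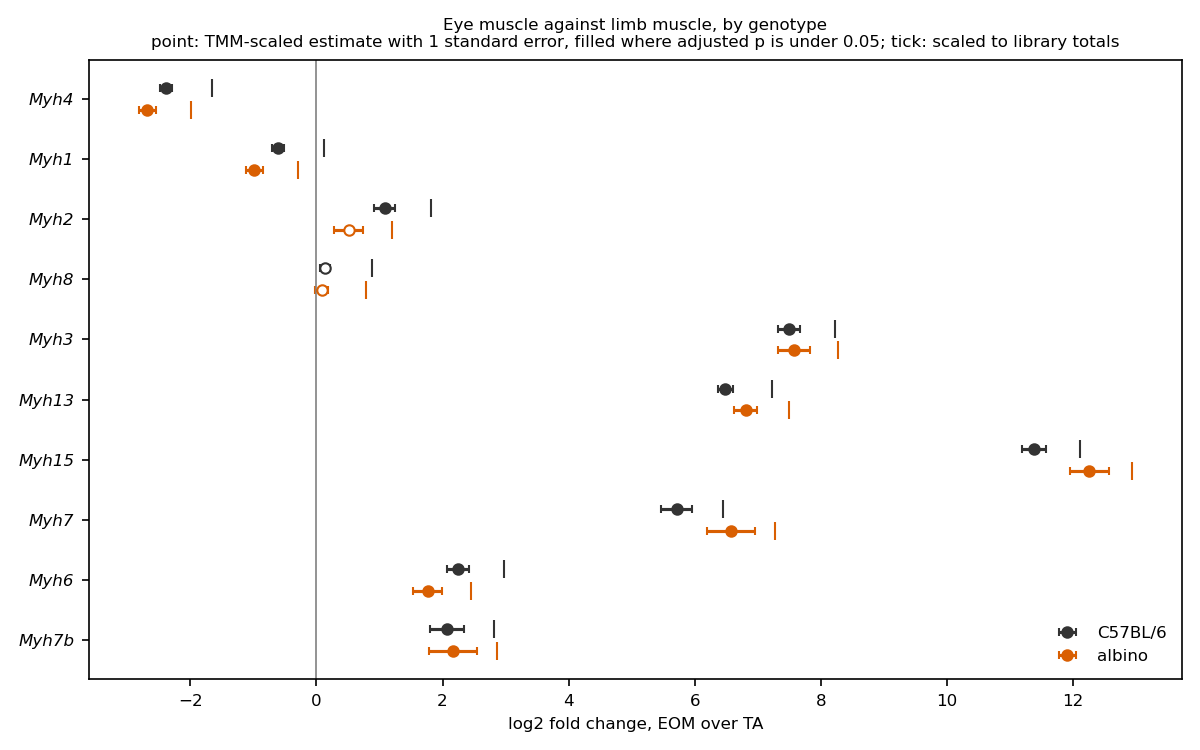
Log2 fold change of EOM over TA for each gene in C57BL/6 (grey) and albino (orange), with 1 standard error and TMM scaling, filled where the adjusted p is under 0.05. Ticks give the same estimate scaled to library totals. Myh15 sits at 11.38 and 12.26 and Myh4 at −2.39 and −2.68, while Myh1 (−0.61 to 0.13 in C57BL/6) and Myh8 (0.14 to 0.88, and −0.46 with GC and length offsets) change side or call with the scaling.

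The genotype comparison in eye muscle turned mainly on Myh15. In C57BL/6 EOM it read 2045, 2030, 2041 and 1618 CPM, in albino EOM 3 and 4 1049 and 1182 CPM, and in the libraries labelled albino CN3 3 and 4, which carry eye muscle markers, 964 and 1033 CPM. All 4 of these libraries stood below all 4 C57BL/6 libraries, of which replicate 4 was the lowest. Myh15 fell by 0.77 ± 0.12 in log2 units (adjusted p = 0.00198, n = 4 and 2), and by 0.87 ± 0.09 with the albino libraries grouped by markers (adjusted p = 0.000159, n = 4 and 4). Over 17 alternatives, not counting all libraries as labelled (−1.74, adjusted p = 0.559), it was negative in all and called in 15, from −0.93 to −0.46, with an adjusted p of up to 0.2. Besides that mixed grouping, which the tallies of alternatives for the members all leave out, the call was lost with a covariate for Y-linked expression (−0.72) and with a replicate block plus GC and length offsets (−0.46). Its share of the myosin sum was 6.27, 6.38, 6.81 and 5.33% in C57BL/6 and 4.42 and 4.41% in albino EOM 3 and 4, lower by more than the spread between libraries. The libraries labelled albino CN3 3 and 4 gave shares of 4.33 and 4.07%.

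Of the 10 members, 3 were called between genotypes in EOM, all lower in albino (Myh15, Myh6 and Myh4), where 32.0% of all genes were called (17.6% lower). Grouped by markers, 8 were called, all lower, against 39.0% of all genes (21.2% lower). The estimate was below 0 in 9 of 10 members, with a median of −0.30 against 0.01 over all genes. In CPM, 6 of 10 members (Myh1, Myh3, Myh4, Myh6, Myh8 and Myh15) did not overlap and were lower in albino, where 54.8% of genes with a mean of at least 1 CPM did not overlap (28.9% lower). With the grouping by markers it was 5, without Myh4, against 41.0% of all genes (21.5% lower). The 3 calls over the matching libraries were close to the 32.0% of all genes called, though all 3 were lower. The 8 calls grouped by markers, and the 6 and 5 members without overlap, stood above the shares of all genes that were lower. Whether the myosins as a set differ from other genes was not tested.

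Myh6 read 44.1, 43.6, 34.5 and 45.4 CPM in C57BL/6 EOM, 28.7 and 31.8 CPM in albino EOM 3 and 4, and 31.6 and 25.4 CPM in the libraries labelled albino CN3 3 and 4. The albino values were lower in all 4, close to C57BL/6 replicate 3 only. The difference was −0.46 ± 0.14 (adjusted p = 0.0373), and −0.51 grouped by markers (adjusted p = 0.00982), called in 9 of 17 alternatives with adjusted p from 0.00548 to 0.178. Myh4 read 11320, 11184, 10483 and 11372 CPM in C57BL/6, 8299 and 9514 CPM in albino EOM 3 and 4, and 7416 and 10610 CPM in those labelled albino CN3 3 and 4. The last of these lies within the C57BL/6 range. Its difference of −0.30 ± 0.10 had an adjusted p of 0.049, and 7 of 17 alternatives called it (adjusted p from 0.00625 to 0.538), among them the grouping by markers (−0.31, adjusted p = 0.0338).

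The other members in EOM missed the threshold with 2 albino libraries. Myh1 read 7187, 6972, 6795 and 7303 CPM in C57BL/6 and 5062 and 6186 CPM in albino (−0.31, adjusted p = 0.0611). Embryonic Myh3 read 3143, 2908, 2736 and 2390 against 2232 and 2338 CPM (−0.27, adjusted p = 0.0937). Myh8 read 914, 886, 839 and 808 against 714 and 755 CPM (−0.21, adjusted p = 0.086). Albino libraries were the lower in all 3 genes, by small margins for Myh3. Myh2 (1597 and 2053 CPM in albino, −0.31, adjusted p = 0.0942) and slow Myh7 (294 and 351 CPM, −0.38, adjusted p = 0.107) overlapped C57BL/6. All 5 were called lower when the 4 albino libraries were grouped by markers, with adjusted p from 0.00865 for Myh1 to 0.0229 for Myh7. Myh13 did not follow them. It read 4459 and 4378 CPM in albino EOM 3 and 4, within the C57BL/6 range of 4272 to 4980 CPM, and 3742 and 3765 CPM in the libraries labelled albino CN3 3 and 4. Its estimate was −0.06 (adjusted p = 0.666), or −0.19 grouped by markers (adjusted p = 0.146). Myh7b, at 27.7 and 31.9 CPM against 21.1, 19.5, 33.5 and 20.6 CPM, was the 1 positive estimate (0.35, adjusted p = 0.22).

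Within the pool, the share of Myh13 was higher and that of Myh15 lower in the albino EOM libraries that match their label. Myh13 took 15.3, 15.7, 14.3 and 14.5% of the sum in C57BL/6 EOM and 18.8 and 16.3% in albino EOM 3 and 4, above all C57BL/6 libraries. The libraries labelled albino CN3 3 and 4, at 16.8 and 14.8%, overlapped them. Myh4 took 34.7, 35.1, 35.0 and 37.4% in C57BL/6 and 34.9 and 35.5% in albino EOM, so its lower CPM came with a lower total: 23762 and 26821 CPM for the 10 genes in albino EOM 3 and 4, 22248 and 25378 CPM in the libraries labelled albino CN3 3 and 4.

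Leaving out single libraries moved the count of EOM members called from 3 to between 1 and 7. It was 7 without C57BL/6 EOM 3, 5 without albino EOM 4, and 1 without C57BL/6 EOM 1, C57BL/6 EOM 2 or albino EOM 3. Other genes moved with the genotype in EOM. The summed CPM of 4 Y-linked genes was 201 to 312 in C57BL/6 and 160 to 170 in albino, 3 of the 4 were lower, and with that level as a covariate 0 members were called (14 genes in all). The pituitary and choroid plexus list (4 genes) summed to 0.0918 to 0.409 CPM in C57BL/6, with 2 genes at 0, and to 2.46 to 23.8 CPM in albino, with all 3 tested genes higher. Neural markers (10 genes, 0 called) summed to 285 to 385 against 305 to 434 CPM, and gland and epithelium markers (7 genes, 0 called) to 99.0 to 436 against 178 to 327 CPM. The sum of the 10 muscle markers was 61372 to 65558 in C57BL/6 and 61714 to 68403 CPM in albino, with 4 called higher (Tnnt3, Acta1, Ckm and Tnnc2, by 0.34 to 0.48) and 2 lower (Ttn at −0.58 and Neb at −0.70). The Y-linked sums of the genotypes did not overlap, so the Y-linked covariate cannot well be told apart from genotype. The part of any of these markers in the myosin differences was not tested.

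**Figure D4:**
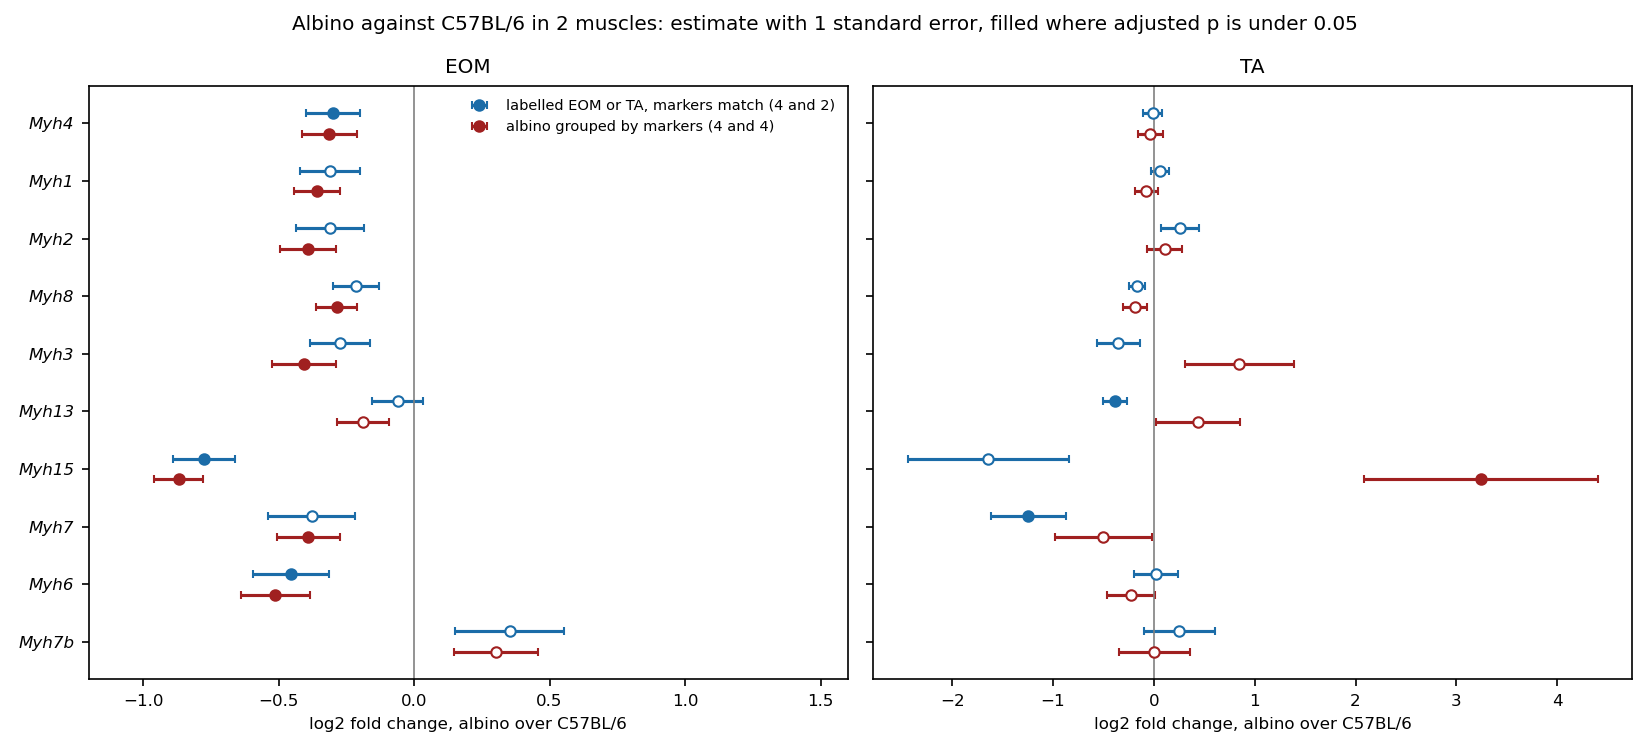
Log2 fold change of albino over C57BL/6 in EOM and TA, with 1 standard error, filled where the adjusted p is under 0.05, for the libraries that match their labels (blue, 4 and 2) and with the albino libraries grouped by markers (red, 4 and 4). The panels have axes of different width. In EOM Myh15 sits at −0.77 and −0.87, and in TA Myh15 moves from −1.64 to 3.24 between the groupings.

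In limb muscle the main isoforms were alike between genotypes. Myh4 read 30971, 33195, 38969 and 36499 CPM in C57BL/6 TA, 36985 and 33737 CPM in albino TA 3 and 4, and 27614 and 36200 CPM in the libraries labelled albino CN6 3 and 4, which carry limb markers. The ranges overlapped and the estimate was −0.01 (adjusted p = 0.93). Myh1 (6156 and 7647 CPM in albino TA, 0.06) and Myh2 (777 and 806 CPM, 0.26) overlapped C57BL/6 as well. Of 10 members, 2 were called, both lower in albino, where 31.1% of all genes were called (16.4% lower). Slow Myh7 read 8.28, 2.99, 4.11 and 4.08 CPM in C57BL/6 TA and 2.54 and 1.62 CPM in albino TA 3 and 4. It was the 1 member of 10 whose CPM did not overlap, where 51.6% of genes did not (24.6% lower). Its difference was −1.25 ± 0.37 (adjusted p = 0.022), −0.87 without C57BL/6 TA 1 (adjusted p = 0.0351) and −0.94 without albino TA 4 (adjusted p = 0.169). Myh13 read 32.3, 34.8, 23.8 and 33.6 CPM in C57BL/6 and 23.8 and 24.9 CPM in albino (−0.38 ± 0.12, adjusted p = 0.0275). C57BL/6 TA 3 was as low as the albino libraries, and the call held in 8 of 18 alternatives. It was lost when any 1 library other than C57BL/6 TA 3 was left out, with adjusted p from 0.0538 to 0.144.

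Markers of other kinds moved with the genotype in TA as well. Of 10 neural markers 5 were tested and 3 were higher in albino (Snap25, Gfap and Mbp), with a sum of 25.2 to 35.2 CPM in C57BL/6, where 4 of the 10 were at 0, and 45.8 to 51.7 CPM in albino. Of the 10 muscle markers 1 was higher and 4 were lower (Ttn, Neb, Casq1 and Ryr1), with sums of 128517 to 132571 and 128863 to 131162 CPM. Of the growing fibre markers 7 were tested and 2 were lower (Actc1 and Chrna1), with sums of 113 to 133 and 96.8 to 102 CPM. Of the 4 Y-linked genes 2 were lower, with sums of 160 to 206 and 142 to 155 CPM. With the Y-linked covariate neither Myh7 (−1.67, adjusted p = 0.25) nor Myh13 (−0.83, adjusted p = 0.0504) was called. The Y-linked sums did not overlap between genotypes here either, so that fit cannot well tell the covariate from genotype. The part of any of these markers in the Myh7 and Myh13 differences was not tested.

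Grouping by markers changed these calls through 1 library. The library labelled albino CN6 4 held 94.0 CPM of Myh13, 42.7 of Myh3, 13.7 of Myh15 (326 reads) and 7.73 of Myh7. That labelled albino CN6 3 held 19.5, 6.16, 1.47 (28 reads) and 1.32 CPM. The first stood above all C57BL/6 TA libraries in Myh13, Myh3 and Myh15. Of the mean level in albino EOM its values were 2.13% for Myh13, 1.87% for Myh3, 1.23% for Myh15 and 2.40% for Myh7. For Alx4, a transcription factor gene of the eye region, its value was 0.900%, against 0.203% in the library labelled albino CN6 3, while Hoxc10, a limb position gene, read 82.0 and 95.5 CPM in the 2. Grouped by markers, 1 of 10 members was called in TA, Myh15 higher in albino (3.24 ± 1.16, adjusted p = 0.0462), against 33.7% of all genes. Myh13 turned to 0.44 (adjusted p = 0.451) and Myh7 to −0.50 (adjusted p = 0.461). Without that library Myh15 was 0.30 (adjusted p = 0.807), and Myh7 (−1.42, adjusted p = 0.00788) and Myh13 (−0.48, adjusted p = 0.01) were called lower.

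Whether the genotype difference differed between the muscles was tested as an interaction. None of the 10 members was called by edgeR's quasi-likelihood test (0 of 10), where 7.73% of all genes were. Unadjusted p under 0.05 was reached by 3759 genes, and among the members by Myh1 (−0.38, unadjusted p = 0.0338, adjusted p = 0.168). For Myh15 it was 0.88 (unadjusted p = 0.204), with genotype estimates of −0.77 in EOM and −1.64 in TA. Grouped by markers, Myh15 was called with the opposite sign (−4.04 ± 1.20, adjusted p = 0.0343), against 13.0% of all genes, and without the library labelled albino CN6 4 it was −1.03 (adjusted p = 0.375). The lower Myh15 in albino EOM is therefore not shown to differ from the change in TA, where the gene was counted from 1 to 19 reads in the matching libraries.

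In the neural samples the pool was small and made of other members. The 10 genes summed to 24.5 to 35.2 CPM in the 16 libraries with neural markers. Per kilobase, C57BL/6 CN3 was led by Myh7b (1.35) and Myh6 (1.32), which overlapped, then Myh7 (0.556), Myh15 (0.433) and Myh4 (0.400), each overlapping the next. C57BL/6 CN6 was led by Myh6 (1.46) and Myh7b (1.38), overlapping, then Myh7 (0.672), Myh15 (0.553) and Myh4 (0.377), again each overlapping the next. The cardiac and slow chains thus led in both, ahead of the isoforms that led in muscle. Over all 16 libraries Myh6 ranged from 7.40 to 11.7 CPM, Myh7b from 7.29 to 10.4, Myh7 from 3.59 to 6.78 and Myh15 from 1.72 to 4.03 CPM. Myh15 was thus higher in neural samples than in C57BL/6 TA (at most 0.679 CPM), Myh6 lay just above its range there (4.03 to 7.22 CPM), and Myh7 within it (2.99 to 8.28 CPM).

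Myh4, the IIB chain, gave lower CPM in the albino neural libraries but was not called by edgeR in either nucleus over the libraries whose markers match the label. It read 1.43, 2.40, 2.07 and 3.73 CPM in C57BL/6 CN3, 0.0968 and 0.191 CPM in albino CN3 1 and 2, and 0.343 and 0.116 CPM in replicates 1 and 2 labelled albino EOM. In CN6 it read 0.480, 1.89, 3.72 and 2.99 CPM in C57BL/6, 0.195 and 0.0897 CPM in albino CN6 1 and 2, and 0.283 and 0.306 CPM in the libraries labelled albino TA 1 and 2. All albino libraries were below all C57BL/6 libraries, at 3 to 11 reads each. In CN3, 0 of 8 members tested were called by edgeR (0.0804% of all genes were, and 1345 had an unadjusted p under 0.05), and DESeq2 called 1. Myh4 was −4.01 ± 0.56 (adjusted p = 0.0682), and −3.65 ± 0.43 grouped by markers (adjusted p = 0.00638), the 1 member called then against 0.283% of all genes. In CN6, 0 of 9 members tested were called (0.0246% of all genes, 1523 with an unadjusted p under 0.05), DESeq2 called 1, and grouped by markers 0 of 7 were (0.120% of all genes). Myh4 was −4.00 ± 0.87 there (adjusted p = 0.321). Myh1, at 0.0960, 0.510, 1.97 and 0.402 CPM in C57BL/6 CN6, had 2 reads and 0 reads in albino CN6 1 and 2 (adjusted p = 0.456), and 3 and 0 reads in the libraries labelled albino TA 1 and 2.

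Values of other skeletal muscle genes stood beside those of Myh4, though none was called over the libraries whose markers match the label. Ckm, the muscle creatine kinase, read 0.358 to 1.00 CPM in C57BL/6 CN3 and at most 0.222 in the 4 albino libraries, and in CN6 0.320 to 1.62 against 0.106 to 0.306 CPM. Tnnt3, the fast troponin T, read 0.848 to 1.44 against 0.145 to 0.452 CPM in CN3 and 0.544 to 2.14 against 0.0708 to 0.456 CPM in CN6. Acta1, skeletal actin, read 1.75 to 3.00 against 0.953 to 1.37 CPM in CN3 and 0.960 to 3.37 against 0.777 to 1.79 CPM in CN6, where the ranges overlap. Over the whole muscle marker list of 10 genes, 0 were called in CN3, and its sum was 128 to 154 CPM in C57BL/6 and 131 to 139 in albino. In CN6 it was 160 to 177 against 151 to 165 CPM, with 0 called. The 4 pituitary and choroid plexus markers, of which 0 were called and 0 were absent throughout, had a median of −5.52 in CN3 and −4.65 in CN6. Their sums were 10.2 to 473 CPM in C57BL/6 CN3 against 2.97 to 19.8 CPM in albino CN3 1 and 2. In CN6 they were 28.6 to 443 CPM in C57BL/6 against 5.93 to 24.0 CPM in albino CN6 1 and 2. Over the 4 albino libraries grouped with CN6 the sums ran from 5.93 to 7702 CPM, with Ttr at up to 7700 CPM, so there the list was not lower throughout. The part of these genes in the Myh4 difference was not tested.

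**Figure D5:**
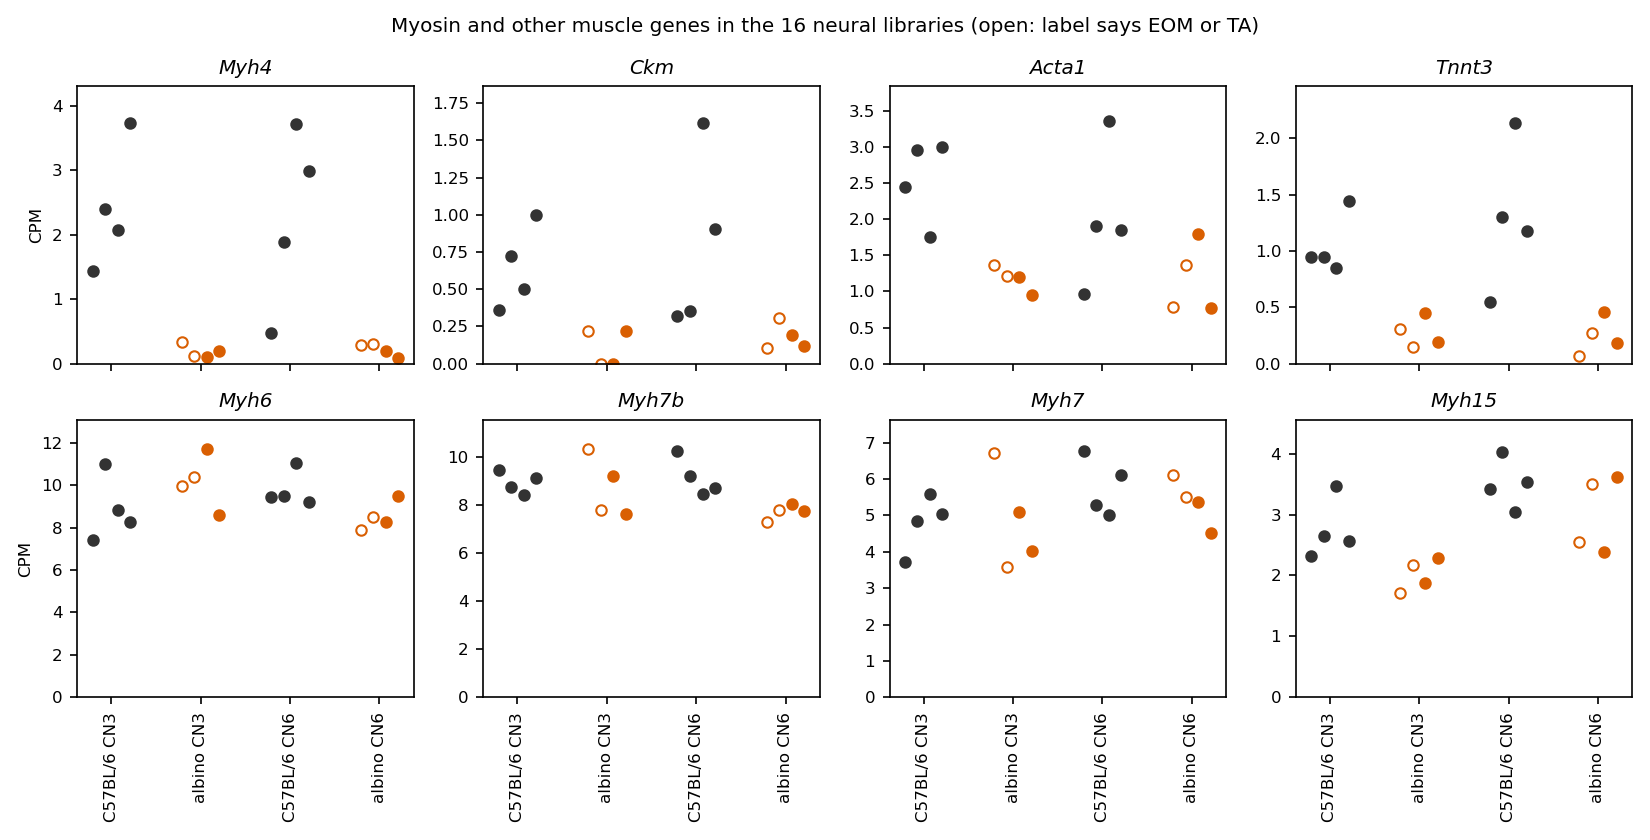
CPM of Myh4, 3 other skeletal muscle genes and 4 myosin members in the 16 neural libraries, 1 point each on axes that start at 0, with C57BL/6 in grey and albino in orange. Open points are libraries labelled EOM or TA. Myh4 lies at 0.480 to 3.73 CPM in C57BL/6 and at no more than 0.343 CPM in albino, while Myh6 stays between 7.40 and 11.7 CPM.

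Each of Myh6, Myh7 and Myh7b carries a microRNA within the gene, shown here with the seed (bases 2 to 8) in capitals because the seed links the 3 (RefSeq, GRCm38.p6).

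miR-208a-3p, in Myh6: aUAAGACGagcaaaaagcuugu
miR-208b-3p, in Myh7: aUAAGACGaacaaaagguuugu
miR-499-5p, in Myh7b: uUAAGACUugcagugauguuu

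The first 2 share the seed UAAGACG, and miR-499-5p has UAAGACU. The table counts the hosts' precursor genes in these RNA libraries, which do not measure mature microRNAs. Mir208a had 5 to 30 reads in each neural library and 0 to 2 in each muscle library, although Myh6 was higher in eye muscle (34.5 to 45.4 CPM in C57BL/6) than in neural samples. Mir208b had at most 2 reads in any library and Mir499 had 0. Between Myh3 and Myh2 on the minus strand lies the lincRNA 2310065F04Rik (chromosome 11, 67112461 to 67120080). It read 122 to 141 CPM in C57BL/6 EOM, 166 and 169 in albino EOM 3 and 4, 270 to 332 in C57BL/6 TA and 253 to 306 in albino TA. Its order of muscles was that of Myh4, not of its neighbours Myh3 and Myh2. The strand setting of the counts is not given in the sources used here.

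Genes whose profiles over the 12 matching muscle libraries lay nearest to a member, by the root mean square difference of centred log2 CPM among 10517 genes, were named by rank. Nearest to Myh4 were Me1, the cytosolic malic enzyme (0.16), Pygm, muscle glycogen phosphorylase (0.18), and Lrrc2 (0.18). Near to Myh2 were Clec1a (0.15) and Adgrl2 (0.17). Myh13 lay nearest to Tnni1, slow troponin I (0.38), Gngt1 (0.41) and Zfp385c (0.41). Myh15 had no close neighbour, with Mybphl, a myosin binding protein relative, at 1.07, Pcdh15 at 1.71 and Alx4 at 1.83. Nearest to Myh7 were Tmprss13 (0.49), 6030407O03Rik (0.53) and Tnni1 (0.62). Most of the spread in these profiles is the step between EOM and TA.

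The partners of the heavy chains were read from 4 lists, whose counts in EOM against TA stand beside 75.9% of all genes called (41.4% higher, 34.6% lower). Of 9 sarcomeric light chains and light chain kinases, 8 were tested between EOM and TA in C57BL/6, and 3 were higher and 5 lower (3 and 4 with library totals), with a median of −1.10. The fast light chains Myl1 (−1.48) and Mylpf (−1.61) and the kinases Mylk2 (−3.89) and Mylk4 (−1.79) were lower in EOM with TMM scaling, as Myh4 was. All 4 other class II heavy chains were higher in EOM, among them Myh10 (1.71) of nonmuscle cells and Myh11 (1.80) of smooth muscle. Of 8 folding and turnover genes 1 was higher and 6 lower with TMM scaling, but 4 and 4 with library totals. Unc45b, the myosin chaperone (−1.34), and Trim63, a ubiquitin ligase of the thick filament (−2.15), were lower, and Hsp90aa1 (1.17) higher. Of 22 regulators of fibre type 5 were higher and 14 lower, and 10 and 10 with library totals. Eya2 (3.77) was higher, and Sox6 (−1.93) and Bhlhe41 (−1.27) were lower, with TMM scaling.

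Between genotypes the light chain kinase Mylk4 fell in both muscles, by 0.99 in EOM (adjusted p = 0.000615) and by 1.18 in TA (adjusted p = 2.45e-06). Mylpf (0.32) and Mylk2 (0.26) rose in albino EOM, where Myh4 was lower, and 5 of 8 light chain genes were not called. Among the 22 regulators 2 rose and 9 fell in EOM, where 32.0% of all genes were called (17.6% lower), with Bhlhe41 at −1.15, Maf at −1.12, Mef2c at −0.80 and Mef2a at −0.65. In TA 2 rose and 11 fell, where 31.1% were called (16.4% lower), with Tead4 at 1.21, Sox6 at −0.71, Mef2c at −0.57 and Tead1 at −0.47. The medians were −0.19 and −0.26, against 0.01 and 0.00 over all genes. Of the folding genes Unc45b rose in EOM (0.42) and Trim63 in TA (0.71), and the other 7 of the 8 were not called in each muscle. Myh10 (−0.58) and Myh11 (−0.84) fell in albino EOM, and 0 of the 4 class II genes were called in TA. In CN3 and CN6 none of these lists held a called gene (0 in each).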

How the data were processed

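The files hold read counts per gene symbol for the 32 libraries, deposited by the authors without normalization. Per the submitters' processing notes, the authors used Trimmomatic 0.33, FastQC, HISAT2 2.1.0 with build mm10, featureCounts and edgeR. The annotation, the strand setting and the handling of reads that map to several places are not given in the sources used here. Per the labels, RNA was isolated with an RNeasy kit for fibrous or for lipid tissue.

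From the counts, CPM (scaled to the library totals as deposited) and log2 CPM with a prior count of 2 were computed in R 4.3.3. Comparisons used edgeR 4.0.16 (filterByExpr, TMM, two-sided quasi-likelihood F test) with Benjamini-Hochberg adjustment over every gene tested, and calls were made at an adjusted p under 0.05. Standard errors come from the F statistic. The fit was tested on simulated data. Exon lengths are the union of GENCODE exons, and 95.6% of the 24421 symbols had a position there. Library totals of 18544334 to 44254021 reads make counting error small for the muscle members with many reads. It is not small for all members in TA, where the matching libraries held 40 to 207 reads of Myh7 and 1 to 19 of Myh15. The precision is also limited by having 2 albino libraries per tissue that match their label. A count of 0 allows up to 3 reads, which covers counting error only. No 2 libraries of a group were as close as sampling noise.

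The members, gene lists, markers and comparisons were chosen with earlier results of these data known. Named genes are the 10 members, up to 4 genes per list by smallest adjusted p, and the 3 nearest profiles to each of 5 members among genes with a mean of at least 5 CPM. Some genes that this rule names are not reported here. Alternatives were RLE size factors, no filter, a minimum of 1 CPM in 2 libraries, DESeq2 1.42.0, a replicate block, all libraries as labelled, the grouping of albino libraries by markers, GC and length offsets (natural splines with 5 degrees of freedom), these with the block, the Y-linked level as a covariate, all tissues in 1 fit, and each library left out in turn. Library totals without a scaling factor, and the grouping by markers without the library labelled albino CN6 4, were chosen after seeing the data.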

Additional observations from a re-analysis of the deposited data

Results flagged for a closer look

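Of 80 groups of 4 libraries examined, 9 had 1 library far from the other 3, where chance gives about 1 in 20. In C57BL/6 EOM, replicate 3 was low in Myh6 at 34.5 CPM (others 43.6 to 45.4) and high in Myh7b at 33.5 CPM (others 19.5 to 21.1), and replicate 4 was low in Myh15 at 1618 CPM (others 2030 to 2045). With the albino libraries grouped by markers, the library labelled albino CN6 4 was high for TA in Myh3 at 42.7 CPM (others 6.16 to 7.45), Myh13 at 94.0 CPM (others 19.5 to 24.9) and Myh15 at 13.7 CPM (others 0.0404 to 1.47). In the neural samples, C57BL/6 CN3 1 was high in Myh2 at 1.63 CPM (others 0.477 to 0.610). The library labelled albino TA 1 had a Myh2 level of 0 CPM (others 0.120 to 0.136), and that labelled albino TA 2 was high in Myh13 at 0.477 CPM (others 0.0652 to 0.120).

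The genotype difference of Myh15 differed between EOM and TA by −4.04 on the log2 scale with the albino libraries grouped by markers, by the interaction test. Without the library labelled albino CN6 4 it was −1.03 and was not called.

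The 4 libraries labelled as albino neurons that the tests left out held muscle levels of myosin. The 10 genes summed to 22248 and 25378 CPM in those labelled albino CN3 3 and 4 (C57BL/6 CN3 27.0 to 32.4) and to 33411 and 43096 CPM in those labelled albino CN6 3 and 4 (C57BL/6 CN6 31.6 to 35.2).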

How the results depend on the processing

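Genotype in EOM called 3 members. The count was 8 with DESeq2, 1 with the replicate block, 0 with all libraries as labelled, 8 with the albino libraries grouped by markers, 0 with the replicate block and GC and length offsets, 0 with the Y-linked covariate, 1 with all tissues in 1 fit and 5 with library totals. Genotype in TA called 2 members, against 0 as labelled, 1 grouped by markers, 4 with the replicate block and GC and length offsets, and 1 each with the Y-linked covariate, all tissues in 1 fit and library totals. Genotype in CN3 called 0, against 1 each with no filter, DESeq2, the grouping by markers, the replicate block with offsets and all tissues in 1 fit. Genotype in CN6 called 0, against 1 with DESeq2 and 1 with all tissues in 1 fit. EOM against TA called 9 in C57BL/6 and 8 in albino, against 5 and 0 with all libraries as labelled. Genotype by muscle called 0, against 1 grouped by markers. With 1 library left out the counts ran from 1 to 7 (EOM), 0 to 2 (TA), 0 to 0 (CN3), 0 to 0 (CN6), 9 to 10 (EOM against TA in C57BL/6), 8 to 9 (the same in albino) and 0 to 1 (genotype by muscle). The cause was not tested, except that mixing muscle with neural libraries as labelled widens the spread by construction.

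Of single values 8 reversed. In TA these were Myh7b at −1.71 with the Y-linked covariate, and Myh13 at 0.44 and Myh15 at 3.24 grouped by markers. In EOM against TA, Myh1 was 0.13 with library totals, and Myh8 −0.46 with GC and length offsets, −0.46 with these and the replicate block, and −0.27 with the offsets in albino. Genotype by muscle for Myh15 was −4.04 grouped by markers. Of the other alternatives for single values 1279 kept direction and side of the threshold, 49 lost a call, 45 gained one and 24 shares moved by more than the spread between libraries.

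The labels number the replicates alike in every group, but no pairing by number was detected in the expression values. Between C57BL/6 EOM and TA, same-numbered libraries correlated at 0.033, 0.00052, 0.10 and 0.020 in their deviations from the group means. Of 8 libraries, 3 correlated best with their own number. Such values cannot show that same-numbered libraries come from different mice, since tissues of 1 mouse may vary separately. The replicate block lowered the EOM count to 1 and changed no other count of calls by over 1.5 times. Where a leave-one-out fit leaves 1 albino library, that library is assumed to vary like the others. Depth limits Myh15 in TA (1 to 19 reads) and Myh1, Myh2, Myh3, Myh8 and Myh13 in neural samples (0 to 72 reads).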
